A study of Mus musculus with 237 samples.

Results

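The columns described are single cells of fetal mouse skin that were high in both Krt1 and Krt10, here called suprabasal keratinocytes. They were set against columns of the same count table called basal keratinocytes. Members were chosen by measured values: among all 237 columns with 3000 or more genes counted, a column was suprabasal if Krt1 and Krt10 were both at 1000 CPM (rounded count scaled to the column total) or more, and basal if Krt5 and Krt14 were at 300 CPM or more with Krt8 below 100, Krt17 below 1000 and both Krt1 and Krt10 below 500. Columns with Col1a1 and Col3a1 both at 100 CPM or more were left out of both groups. This gave 8 suprabasal and 43 basal columns, 51 of the 237 in all.

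The series held single skin cells of C57BL/6N fetuses at E14.5, carried by ICR surrogate mothers, with 66 cells from 3 wild-type embryos and 171 cells from 7 embryos whose Trp63 gene had been disrupted by genome editing. Wild-type skin was split with dispase before trypsin freed the epidermal cells, whereas knockout fetuses went into trypsin directly, and live cells without CD45, TER119 and CD140a were sorted. Libraries were made with SMART-Seq HT, which copies full-length transcripts and adds no molecular identifiers, and cDNA was screened by qPCR before sequencing, keeping wild-type samples that amplified Krt5 and knockout samples that amplified Krt8, with no clear amplification of Pdgfra. Cells were labelled by layer or type, and 8 wild-type cells carried the label intermediate layer and 45 the label basal layer.

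The columns were named by sequencing run, and 16 of them could be paired with a labelled cell. One suprabasal column, S1, was the pair of a wild-type cell labelled intermediate layer, and all 11 paired cells labelled basal layer fell in the basal group. The 4 other paired cells, labelled K17 high, fell in neither. The genotype and embryo of the other columns are not known here, so the columns were treated as one pool of cells, with no test, and the differences below are descriptions of these columns.

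Keratinocytes of the basal layer rest on the basement membrane through hemidesmosomes, divide, and express Krt5 and Krt14. Cells that leave this layer switch to Krt1 and Krt10, build more desmosomes and later make the lipids and cross-linked proteins of the skin barrier. In the mouse the spinous layer forms around the age sampled here, ahead of the granular and cornified layers.

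The 8 suprabasal columns, called S1 to S8 in file order, held 5809480 to 11637450 counts (median 7545096) and 9175 to 12066 counted genes (median 10048). The 43 basal columns held 4934158 to 15709545 counts (median 7865694) and 9481 to 13204 genes (median 11715). Depth was thus similar, and fewer genes were counted in the typical suprabasal column.

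The values that chose the columns are given here as a description. Krt1 ran from 1437 to 14357 CPM in the suprabasal columns (median 5461) and Krt10 from 2403 to 16758 CPM (median 6344). In the basal columns the highest Krt1 was 87.0 CPM and the highest Krt10 110 CPM. The suprabasal column closest to the limit was S6, with Krt1 at 1437 CPM and Krt10 at 5663 CPM, followed by S3, with 2170 and 3779 CPM. Just outside lay a column with Krt1 at 838 and Krt10 at 401 CPM, below the suprabasal limit for both genes, with Krt1 and also Krt17, at 5135 CPM, above the basal limits.

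The rule did not limit Krt5 and Krt14 on the suprabasal side, but the qPCR screen selected wild-type cells for Krt5, so its presence in them is no finding. Krt5 was 456 to 4761 CPM in the suprabasal columns (median 1152), and Krt14 ranged from 4.04 to 5756 CPM with a median of 18.3. The columns with Krt14 above 1000 CPM were S6, at 1146 CPM, and S7, at 5756 CPM. S6 also held Krt17 at 6297 CPM, against 89.5 CPM or less in the other suprabasal columns. The rule limited Krt17 on the basal side only. The name suprabasal rests on Krt1 and Krt10 and may fit S6 and S7 less well.

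The columns fell into 3 sets by genes unrelated to the layer. Set A, with 17 columns, had counts of the Y-linked genes Ddx3y, Uty, Kdm5d and Eif2s3y and of Gm42418, an annotated gene rich in ribosomal RNA reads. The 18 columns of set B had no Y-linked count, and the 16 of set C had Y-linked counts and not a single count of Gm42418. S1 and S2 with 15 basal columns made up set A, S3 with 17 basal columns set B, and S4 to S8 with 11 basal columns set C. The related gene CT010467.1 took 51285 and 66474 CPM in S1 and S2 and between 2748 and 6754 CPM in the other suprabasal columns, against 519 to 78687 CPM in the basal columns. These sets are not labels of embryos.

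Apart from the 8 genes of the rule, 10300 genes had a mean of 10 CPM or more in at least one group. Of these, 544 (5.28%) were higher in the suprabasal columns by 4-fold or more and 1090 (10.6%) were lower, taking the ratio of mean CPM after adding 1 CPM to each mean. The median log2 ratio over all 10300 genes was −0.16. The higher genes took 5.86 to 14.7% of each suprabasal column's counts and 0.493 to 1.84% of each basal column's, and the lower genes 0.505 to 1.38% and 4.41 to 9.88%. In the 186 columns of neither group the higher genes took 0.65 to 10.4%, so some lay in the suprabasal range. The lower genes took 2.54% or more there. Since a gene that passed the filter through one group alone was bound to differ, the counts below describe these columns and support nothing further. Each list count below is to be read beside the shares over all genes, 5.28% higher and 10.6% lower. A pair of columns within the suprabasal group correlated at a median Pearson r of 0.52 over log2 values of these genes (28 pairs, across genes). The median was 0.51 for basal pairs (903 pairs) and 0.40 for a suprabasal with a basal column (344 pairs). Basal pairs ran from 0.36 to 0.65 and mixed pairs from 0.27 to 0.60, so the ranges overlapped. Suprabasal pairs ran from 0.43, for S3 with S6 of different sets, to 0.66, for S1 with S2 of the same set.

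**Figure D1:**
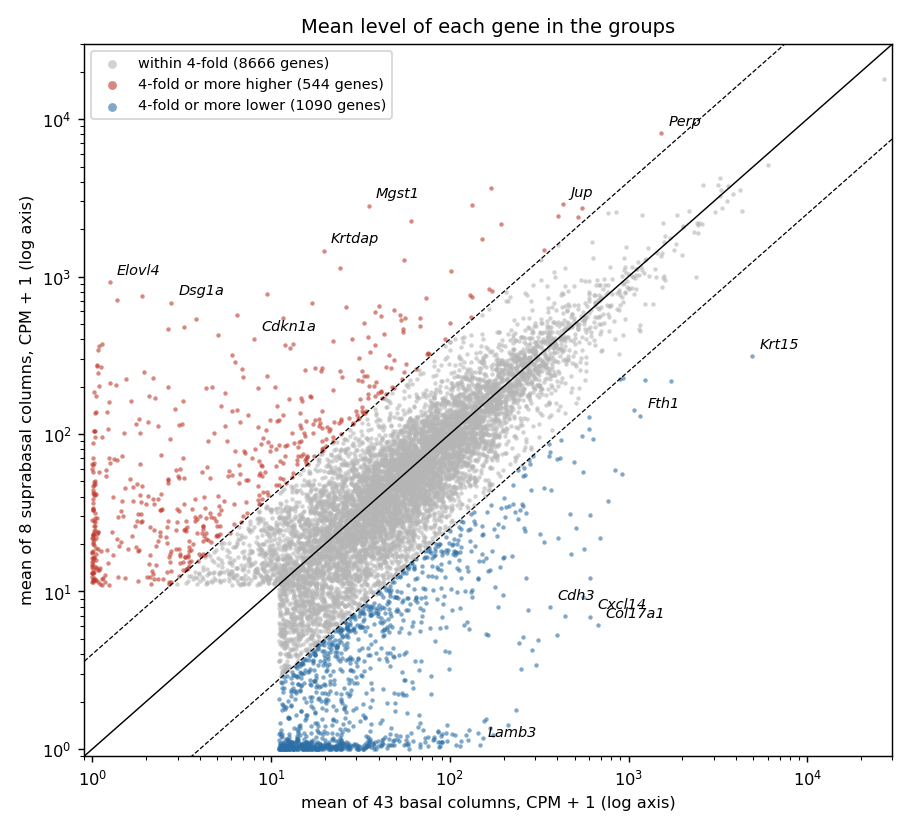
Mean CPM plus 1 of each of 10300 genes in the 43 basal columns (horizontal, log axis) and in the 8 suprabasal columns (vertical, log axis), with the solid line at equal means and dashed lines near 4-fold. Red points are the 544 genes at least 4-fold higher and blue points the 1090 genes at least 4-fold lower in suprabasal columns.

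Within set A, 968 genes were at least 4-fold higher and 2267 lower, and within set C 659 and 1110. Sets A and C share no column, and 324 higher genes were common to them, 33.5% of those of set A and 49.2% of those of set C. They also had 577 lower genes in common, 25.5% and 52% of the sets' lists. Opposite calls were few, with 15 genes higher in set A and lower in set C and 38 the reverse. Set B rests on the single column S3, which gave 871 higher and 5009 lower genes. Of the 544 genes higher over all columns, 169 (31.1%) were at least 4-fold higher in each of the 3 sets and 277 (50.9%) kept their sign in each, against 645 (59.2%) and 1011 (92.8%) of the 1090 lower genes. The median log2 ratio over all genes tested was −2.07 within set B, against −0.34 within set A and −0.13 within set C. Most genes were therefore lower in set B, and these shares cannot be compared between the 2 directions. The 544 and 1090 genes were called over these same columns, so the shares are no replication. With any single suprabasal column left out, 386 (71.0%) of the higher and 969 (88.9%) of the lower genes were called every time.

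A stricter description asks for columns that do not overlap. In 39 genes (0.379% of the 10300) every suprabasal column was above every basal column, and in 14 (0.136%) every suprabasal column was below. Among the 39 were 4 of the desmosome, Perp, Jup, Dsc3 and Dsg1a. Among the 14 were the hemidesmosome collagen Col17a1 and the cadherin Cdh3.

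Desmosomes join keratin filaments of neighbouring cells. Of 13 listed genes 12 passed the filter, and 8 were at least 4-fold higher, with none lower and a median log2 ratio of 2.58. Of these 8, Dsc2 was lower within set B. Perp, a membrane protein needed for stable desmosomes, lay at 6472 to 9350 CPM in the suprabasal columns (median 8268) and at 627 to 2592 CPM in the basal columns (median 1477). Every suprabasal column was therefore at least 6472 CPM while no basal column passed 2592 CPM, a 5.33-fold ratio of means. Summed over columns, Perp was 8126 CPM (exact Poisson 95% interval 8103 to 8148) against 1575 CPM (1571 to 1579). Such intervals treat each read as independent and leave out the spread between columns. They are too narrow even for counting error, because many reads can come from 1 molecule when none carries an identifier.

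Jup, the plakoglobin that links desmosomal cadherins to the plaque, ranged from 1556 to 3498 CPM (median 3154) against 9.88 to 1107 CPM (median 397). S3 gave the lowest Jup, and the fold was 6.68. The log2 ratio was 3.58 within set A and 2.72 within set C, but 1.47 within set B, under the 4-fold limit. Dsp, the desmoplakin that binds keratin, was 314 to 997 CPM against 1.73 to 428 CPM, a 3.75-fold ratio that did not reach the limit, with 7 of 8 suprabasal columns above every basal column.

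The desmosomal cadherins differed from one another. Dsc3 was 402 to 821 CPM (median 566) in suprabasal columns, and basal columns ranged from 0 to 256 CPM around a median of 0.625, with a count in 32 of 43. Dsg1a was 301 to 963 CPM (median 764), and its highest basal column held 69.5 CPM. Because Dsg1a and its close copy Dsg1b can share reads, the split between them is uncertain, and Dsg1b on its own was 21 to 303 CPM against 0 to 38.6 CPM.

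Dsc1, a cadherin of the upper layers, was uneven, with 947 and 1397 CPM in S1 and S2, between 49.3 and 237 CPM in S3, S4, S5, S7 and S8, and no count in S6. Dsg2, a cadherin of simple and basal epithelium, went the other way without reaching 4-fold, at 0 to 127 CPM against a basal median of 112 CPM. The plaque protein Pkp1 was 313 to 1310 CPM against 0 to 992 CPM (log2 ratio 2.33), and Pkp3 had a log2 ratio of 0.80.

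**Figure D2:**
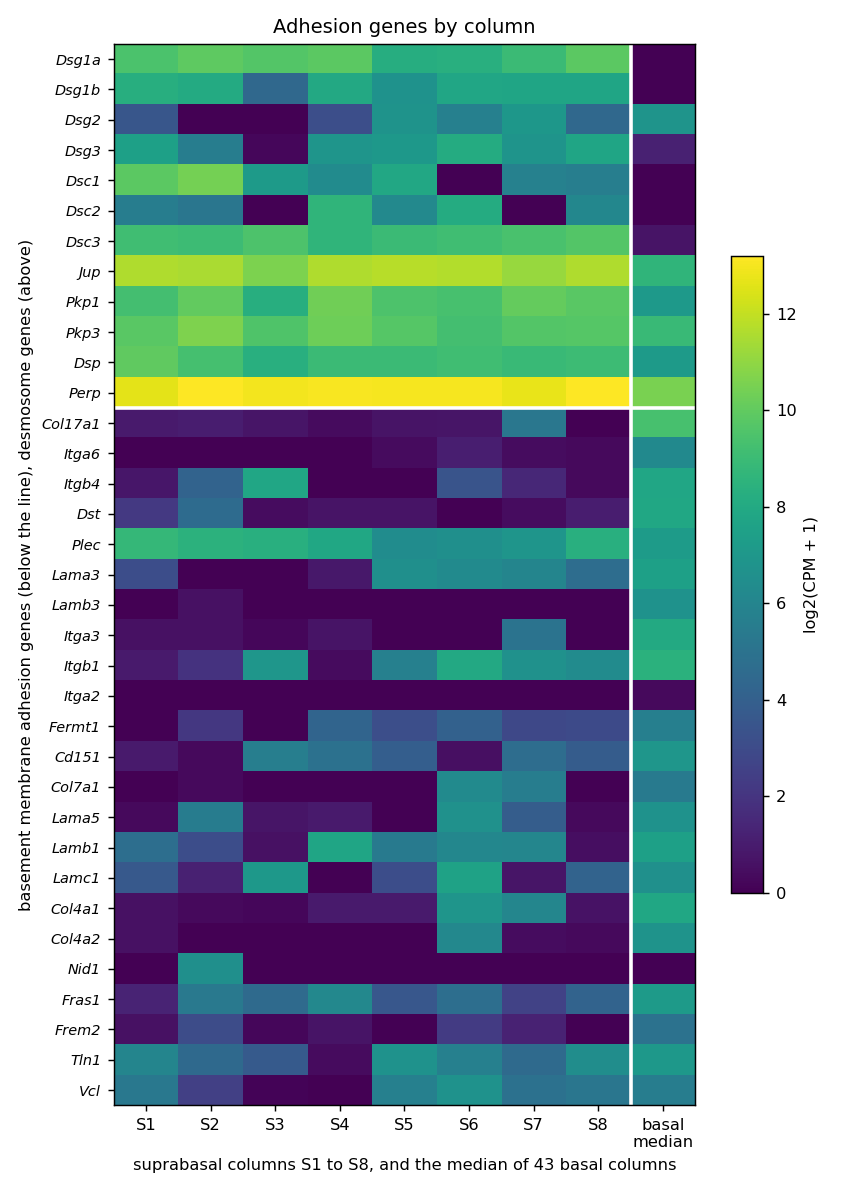
Level as log2(CPM + 1), by colour, of 12 desmosome genes (above the white line) and 23 of the basement membrane adhesion genes (below) in each suprabasal column S1 to S8 and as the median of the 43 basal columns. Perp and Jup are bright in all 8 columns, and Lamb3 and Itga2 are at or near 0 in all 8.

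Genes that hold the basal layer to the basement membrane were mostly low. All 24 listed genes passed the filter, 17 were at least 4-fold lower, Nid1 was higher, and the median log2 ratio was −2.83. Col17a1, the transmembrane collagen of the hemidesmosome, was 48.1 to 1580 CPM in the basal columns (median 655), and in the suprabasal columns it was 36.8 CPM in S7 and 1.04 CPM or less in the others. The mean was 110-fold higher in basal columns (log2 ratio −6.78, or −8.71 without S7), and the groups did not overlap.

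Lamb3 and Lama3 encode chains that basal cells lay down in the basement membrane. Lamb3 had counts in 1 suprabasal column, S2, at 0.522 CPM, and a basal median of 104 CPM (highest 722 CPM). Lama3 was less uniform, at 93.6, 78.1 and 63.2 CPM in S5, S6 and S7 and 0 to 25.6 CPM elsewhere, against a basal median of 178 CPM. For Lamb3 the groups overlapped only in the few basal columns that held next to none of it.

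The integrin subunits fell in the same direction but not in every column. Itga6 was at most 1.16 CPM in suprabasal columns against a basal median of 75 CPM. Its partner Itgb4 was 17.2 CPM or less in 7 columns but 225 CPM in S3, about the basal median of 224 CPM. Itgb1, shared by several receptors, had a basal median of 342 CPM and was 0.32 to 250 CPM in the suprabasal columns, with S1, S2 and S4 below 3 CPM.

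Plec, whose product links integrins to keratin and also sits in other junctions, did not follow, with 84.9 to 446 CPM against a basal median of 149 CPM (log2 ratio 0.40). Col7a1, the anchoring fibril collagen, had a log2 ratio of −1.85, with 77.6 CPM in S6 and 47.2 CPM in S7 and 0.261 CPM or less elsewhere. The higher value of Nid1 came from S2 alone, at 95.1 CPM with no count in the others, and without S2 its log2 ratio was −1.12, and within set C −0.82.

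Markers of the differentiated layers were mostly higher. Of 32 spinous and granular genes 23 passed the filter, 22 were at least 4-fold higher and none was lower, with a median log2 ratio of 4.43. The exception was Fabp5, a fatty acid binding protein, at 1535 to 5020 CPM against 23.6 to 1554 CPM (log2 ratio 1.72). The calls of Cnfn, Sprr1a and Ptgs1 each rested on a single column: without S2 the log2 ratios of Cnfn and Sprr1a were 0.65 and 1.82, and without S3 that of Ptgs1 was −0.02. Within set B Sprr1a and Calml3 were lower, with log2 ratios of −3.22 and −2.36, as were Calm4 within set C (−0.36) and Sprr1b with only the paired columns (−0.13).

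Sbsn, Dmkn and Krtdap encode secreted proteins of differentiating epidermis and are neighbours on mouse chromosome 7 (GRCm38), at chr7:30751471-30756134, chr7:30763756-30781063 and chr7:30787896-30791097. Dmkn was 987 to 5323 CPM in suprabasal columns (median 2474) and 0.222 to 724 CPM in basal columns (median 63). Krtdap was 703 to 3538 CPM (median 1262) against 0.285 to 115 CPM (median 5.81), a 74.2-fold ratio. Neither gene overlapped between the groups. Sbsn was 23.6 to 1620 CPM with S2 the highest, and 5 of 8 columns were above the highest basal column at 92.6 CPM.

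Because these 3 neighbours were high together, their promoters are shown with that of Col17a1, which was low. RefSeq sequence of 300 bases around the start of each gene (GRCm38.p6) was searched on both strands for TGANTCA, the letters bound by AP-1 factors, and TATAAA, and both are in capitals where found. The stretches are chr7:30787655-30787954 (plus strand) for Krtdap, chr7:30763506-30763805 (plus strand) for Dmkn, chr7:30751221-30751520 (plus strand) for Sbsn and chr19:47691993-47692292 (minus strand) for Col17a1.
Krtdap: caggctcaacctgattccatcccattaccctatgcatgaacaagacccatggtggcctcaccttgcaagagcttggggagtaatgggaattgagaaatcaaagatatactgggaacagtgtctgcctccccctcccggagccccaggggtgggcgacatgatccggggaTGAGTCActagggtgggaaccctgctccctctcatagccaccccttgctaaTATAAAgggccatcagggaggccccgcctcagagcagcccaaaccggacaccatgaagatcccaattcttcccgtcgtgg
Dmkn: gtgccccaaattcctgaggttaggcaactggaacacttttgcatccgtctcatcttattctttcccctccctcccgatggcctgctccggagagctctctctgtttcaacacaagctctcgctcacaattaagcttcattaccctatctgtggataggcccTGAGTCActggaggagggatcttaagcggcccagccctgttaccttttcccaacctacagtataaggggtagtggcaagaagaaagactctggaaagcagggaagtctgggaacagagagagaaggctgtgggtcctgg
Sbsn: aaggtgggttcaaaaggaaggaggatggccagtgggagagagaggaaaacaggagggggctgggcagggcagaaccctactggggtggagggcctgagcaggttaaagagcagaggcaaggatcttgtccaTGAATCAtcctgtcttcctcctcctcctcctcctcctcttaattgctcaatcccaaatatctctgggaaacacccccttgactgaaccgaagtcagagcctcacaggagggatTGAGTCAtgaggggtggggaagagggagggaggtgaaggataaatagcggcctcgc
Col17a1: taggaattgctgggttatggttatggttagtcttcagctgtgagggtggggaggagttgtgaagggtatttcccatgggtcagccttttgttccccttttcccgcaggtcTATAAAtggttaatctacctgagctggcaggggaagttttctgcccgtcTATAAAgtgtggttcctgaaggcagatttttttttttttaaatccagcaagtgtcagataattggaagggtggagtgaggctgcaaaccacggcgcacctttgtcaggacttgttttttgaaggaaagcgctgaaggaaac
TGANTCA was found 1 time in Krtdap and Dmkn and 2 times in Sbsn, and TATAAA 1 time in Krtdap and 2 times in Col17a1. Of the promoters not printed, those of the higher genes Jup, Elovl4 and Cdkn1a, of Krt10 and of the lower gene Lamb3 held no TGANTCA. Those at the other starts of Dmkn, chr7:30763508-30763807, which overlaps the printed stretch, and chr7:30776155-30776454, held it 1 time each. The printed ones thus do not stand for the higher genes as a whole. Of 27025 genes with a promoter in the table, 8.97% held TGANTCA in at least one promoter. The share was 5.51% of the 7847 tested genes that could be matched, 11.1% of 386 higher genes and 6.23% of 802 lower genes. For TATAAA the shares were 15.7%, 7.96%, 13.2% and 9.98%. AACNNGTT, the core letters bound by Grainyhead-like factors, was in none of the 4 printed stretches and in 4.77%, 4.19%, 4.66% and 4.49% of these gene groups. A match describes the letters and not a bound site.

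Genes of later differentiation differed in how far they were counted. Lor, the loricrin of the cornified envelope, was 21.3 to 151 CPM against 0 to 40.6 CPM, and the cross-linking enzyme Tgm1 was 64.7 to 395 CPM against 0 to 69.4 CPM. Flg and Ivl, for filaggrin and involucrin, had no count in the 8 columns, which together allows up to 0.0481 CPM for a count of 0. Krt77, a keratin expressed with Krt1, was 2054 and 2117 CPM in S1 and S2 and 1480 CPM in S4, but 0.698 CPM in S6 and 0 in S7. Lgals3, a lectin, was likewise 0.233 CPM in S6, 30.6 CPM in S7 and 34.7 CPM in S8 against 593 to 1668 CPM in S1 to S5.

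Lipid genes of the barrier followed the same direction. Of 19 listed genes 15 passed the filter, 11 were at least 4-fold higher and none was lower (median log2 ratio 3.09). The calls of Cers3 and Slc27a4, 2 of the 11, ended without single columns, with log2 ratios of 1.91 for Cers3 without S2 and 1.99 without S8, and a value just under the limit for Slc27a4 without S3. Within set B Cers3 was lower, with a log2 ratio of −3.80. Elovl4, which elongates very long chain fatty acids for barrier ceramides, was 260 to 1940 CPM (median 899), and no basal column passed 1.45 CPM. Cyp4f39, which hydroxylates such fatty acids, was 40 to 701 CPM against at most 0.702 CPM, and both genes separated the groups completely. Abca12, the lipid transporter of lamellar granules, was 71.1 to 504 CPM in 6 columns but 0.465 CPM in S6 and 0 in S7. Alox12b, a lipoxygenase of the mature barrier, had no count in either group, and the higher value of Acer1 came from S2 (308 CPM) and S1 (37.8 CPM).

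**Figure D3:**
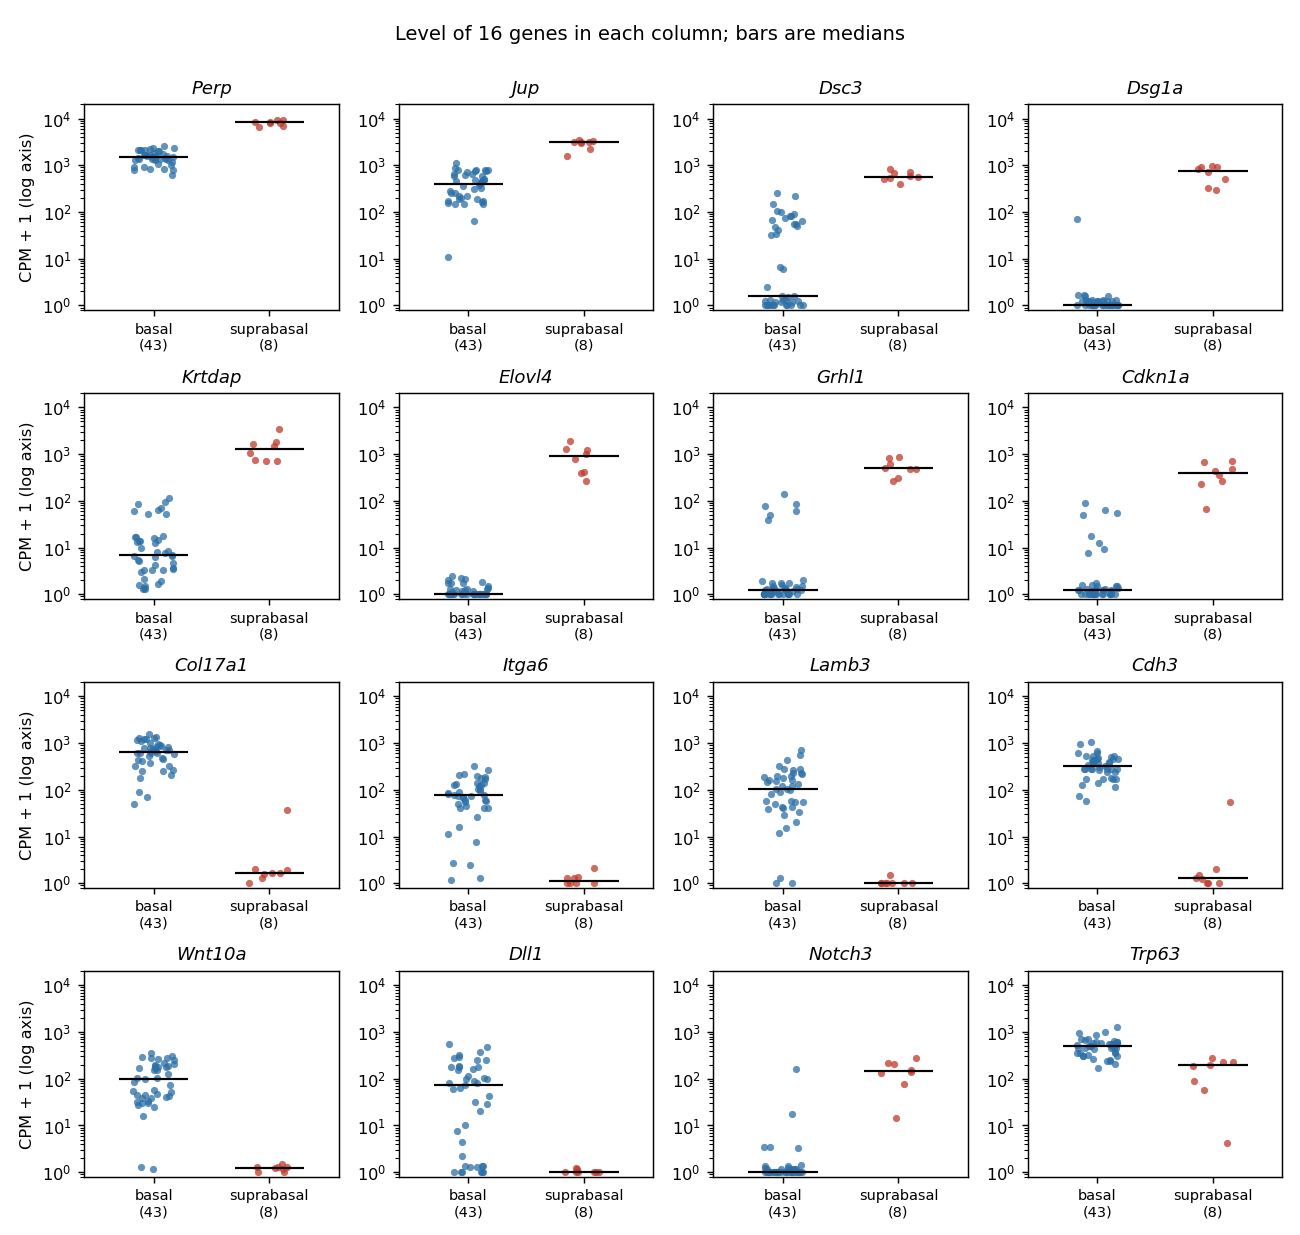
CPM plus 1 (log axis) of 16 genes, with 1 point for each of the 43 basal (blue) and 8 suprabasal (red) columns and a bar at each group's median. The groups do not overlap for Perp, Jup, Dsc3, Dsg1a, Krtdap, Elovl4, Grhl1, Col17a1 and Cdh3.

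Genes typical of the basal layer, listed without the rule genes Krt5 and Krt14, were mostly low. All 15 on the list passed the filter, 12 were at least 4-fold lower and Fgfr3 was higher (median log2 ratio −3.98). Krt15 was 45.7 to 14894 CPM in basal columns (median 4178), 2378 CPM in S7 and 46.8 CPM or less in the other suprabasal columns. Ccnd1 and Ccnd2, the cyclins that carry cells through early G1, also differed. Ccnd2 had a basal median of 832 CPM and was 206 CPM in S6, 201 CPM in S7 and 49.9 CPM or less elsewhere.

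Several of these genes encode signals or their receptors. Wnt10a, a Wnt ligand, was at most 0.485 CPM in suprabasal columns against a basal median of 97.7 CPM, and Wnt6 was 56.1 CPM in S6 and 2.43 CPM or less elsewhere against a basal median of 567 CPM. Lef1, the nuclear partner of Wnt signalling, was 28.7 CPM in S7 and 1.35 CPM or less elsewhere against 361 CPM. Egfr, the receptor for epidermal growth factor, was 45 to 225 CPM against a basal median of 130 CPM and did not differ by 4-fold. Fgfr2 (4.05-fold lower) and Fgfr3 (4.01-fold higher) lay at the limit in opposite directions. Both calls ended when single columns were left out, with log2 ratios of −1.86 for Fgfr2 without S1 and 1.80 for Fgfr3 without S7.

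Hair placodes arise in the basal layer, and their genes were listed on their own. Of 11 listed genes 6 passed the filter, all 6 were at least 4-fold lower, and the median log2 ratio was −4.60, or −5.26 with the gene at 0 set at the limit for a count of 0. The call of Sox9 (log2 ratio −2.13) ended when any of S1, S3, S4, S5 or S7 was left out, at −1.95 to −1.97. These genes were high in few basal columns, as for Edar, the ectodysplasin receptor, with a basal median of 0.341 CPM and a highest column of 676 CPM. The summed placode list was 0.485 to 65.6 CPM in suprabasal and 0.811 to 1737 CPM in basal columns, so the ranges overlapped.

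Tight junction and classical cadherin genes mostly stayed within 4-fold. Of 20 listed genes 16 passed, 3 were at least 4-fold higher (Ocln, Cldn1 and Tjp3), Cdh3 was lower, and the median log2 ratio was 1.19. As a count, 1 lower of 16 is no more than the 10.6% lower over all 10300 genes, where 5.28% were higher. Within set B Tjp3 was lower, with a log2 ratio of −0.61. Ocln, for the junction protein occludin, was 41 to 364 CPM against a basal median of 0.313 CPM. Cdh3, for P-cadherin, had a basal range of 57.1 to 1043 CPM, and the suprabasal columns held 53.9 CPM in S8 and 1.03 CPM or less elsewhere. Cdh1, for E-cadherin, was 482 to 1212 CPM against 4.32 to 932 CPM (log2 ratio 1.31) and did not reach the limit.

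The Notch pathway drives the exit from the basal layer in mouse epidermis. Of 20 listed genes 11 passed, Notch3 and Nrarp were at least 4-fold higher, Dll1, Jag2 and Rbpj lower, and the median log2 ratio was 0.80. Beside 5.28% higher and 10.6% lower over all 10300 genes, these counts are too small to read further. Among ligands, Dll1 was at most 0.233 CPM in suprabasal columns, against a basal median of 73.7 CPM and a highest column of 558 CPM. Jag2 was 17.4 CPM in S4 and 0.485 CPM or less elsewhere against 75.4 CPM. Jag1 was higher in S1 and S2, at 361 and 317 CPM, than in the other suprabasal columns and had a log2 ratio of 1.58.

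Of the receptors, Notch3 was 13.1 to 271 CPM (median 144), and in the basal columns the median was 0 and the highest value 157 CPM. Notch1 was 32.5 to 685 CPM against 2.56 to 757 CPM, with a log2 ratio of 0.96. Among targets, Nrarp, a feedback inhibitor of the pathway, was 0 to 241 CPM against a basal median of 1.58 CPM. Hes1 was 206 CPM in S6 and in S7 but 0.687 CPM or less in S1 and S3, and Hes5 had no count in any of the 51 columns.

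Among 35 epidermal transcription factors 27 passed, 7 were at least 4-fold higher and 3 lower, with a median log2 ratio of 0.84. Over all 10300 genes 5.28% were higher and 10.6% lower, and the 3 lower of 27 lie near that share. Grhl1, a Grainyhead-like factor that controls desmosomal cadherins, was 264 to 878 CPM (median 497) against a basal median of 0.27 CPM and a highest basal column of 139 CPM. Ovol1, a factor linked to cell cycle exit, was 31.4 to 569 CPM against a basal median of 0, whereas its relative Ovol2 was 6.20 CPM in S7 and 0.302 CPM or less elsewhere against 17.1 CPM. Also higher were Grhl3, Zfp750, Hopx, Cebpa and Id2, and lower were Tfap2b and Id3. Within set B, that is in S3, Zfp750 and Id2 were lower, with log2 ratios of −4.44 and −1.88. The call of Id2 over all columns ended without S4 (log2 ratio 1.95) or without S6 (1.75).

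Trp63, the gene disrupted in the knockout embryos and the master factor of stratified epithelium, was counted in all 51 columns. It was 3.27 to 273 CPM in the suprabasal columns (median 191) and 166 to 1288 CPM in the basal columns (median 498), a log2 ratio of −1.69 that did not reach the limit. S3 was the lowest, at 3.27 CPM, followed by S8 at 55.2 and S2 at 87.4 CPM, and these 3 lay below every basal column. Klf4, a factor of barrier formation, was 4.10 to 199 CPM against 0 to 105 CPM (log2 ratio 1.56).

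**Figure D4:**
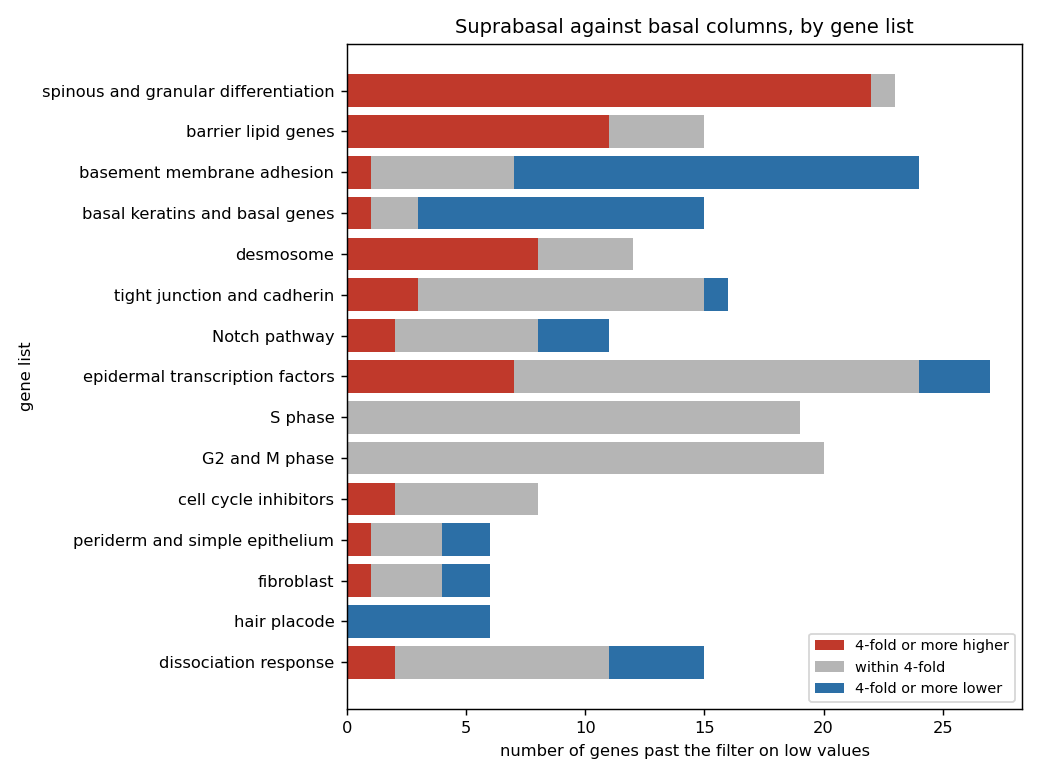
Number of genes past the filter on low values in each gene list with 5 or more such genes (horizontal bars), split into those at least 4-fold higher (red), within 4-fold (grey) and at least 4-fold lower (blue) in suprabasal columns. The spinous and granular list holds 22 higher genes of 23, and the basement membrane list 17 lower genes of 24.

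Taken over all columns, cell cycle genes did not separate the groups at 4-fold, but they divided the suprabasal columns. None of 19 S phase genes and none of 20 G2 and M phase genes that passed the filter differed by 4-fold, with median log2 ratios of −0.70 and −0.52. The summed G2 and M list was 10.2, 79.6 and 162 CPM in S1, S2 and S4, and 2938 to 8008 CPM in the other 5 suprabasal columns. Of the 43 basal columns 4 were below 200 CPM, and the basal median was 4212 CPM. The summed S phase list was highest in S6, at 12153 CPM, within the basal range of 1298 to 13066 CPM. It was 330 to 705 CPM in S1 to S4, under every basal column, and 3018 to 12153 CPM in S5 to S8. Sets A and B held only S1 to S3 on the suprabasal side, so within them this sum was lower in every suprabasal column. The count of genes past 4-fold is over all 8 columns and does not describe these sets.

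Cdkn1a, the inhibitor p21 of cyclin-dependent kinases, was counted in every suprabasal column, also in those with G2 and M genes. It was 701, 475 and 694 CPM in S1, S2 and S4, 66.4 CPM in S7, and between 229 and 429 CPM in S3, S5, S6 and S8. The basal median was 0.237 CPM and the highest basal column held 88.9 CPM, so 7 of 8 suprabasal columns were above all basal columns. Of 10 listed inhibitors 8 passed, and Cdkn1a and Cdkn2b were at least 4-fold higher (median log2 ratio 0.98). Cdkn1c, for p57, had a basal median of 120 CPM and was 0 to 86.7 CPM in the suprabasal columns (log2 ratio −1.46).

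**Figure D5:**
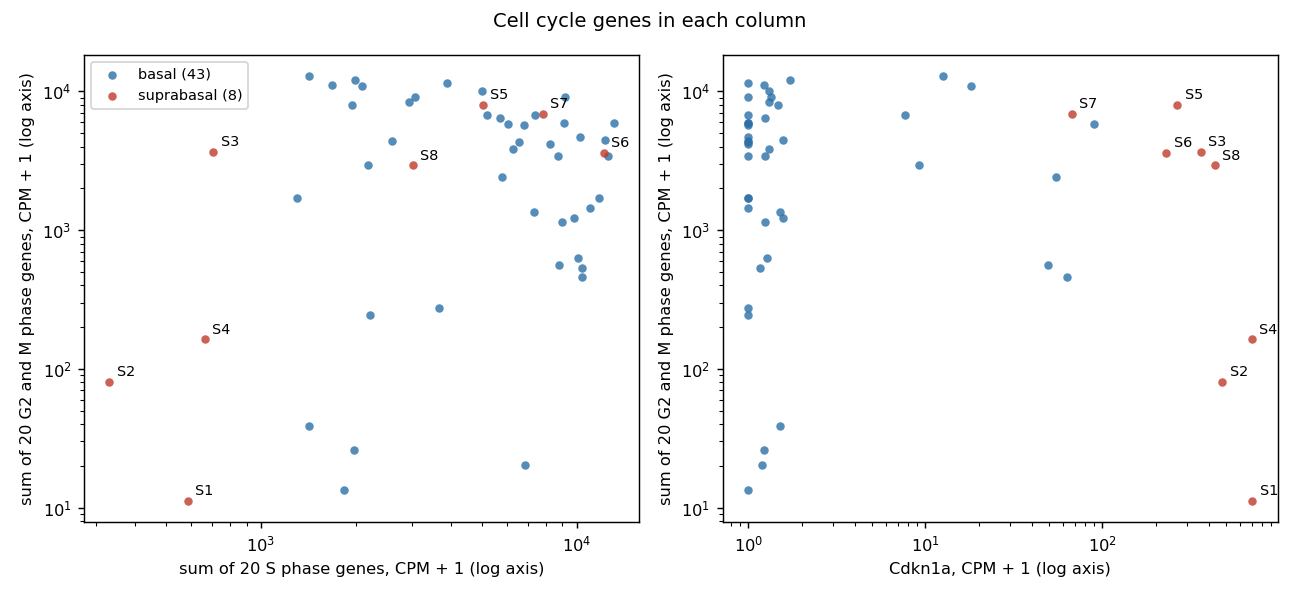
Summed CPM plus 1 of 20 G2 and M phase genes (vertical, log axis) against the sum of 20 S phase genes (left) and against Cdkn1a (right, both log axes), with 1 point for each basal (blue) and suprabasal (red) column. S1, S2 and S4 lie at 162 CPM or less of G2 and M genes with Cdkn1a at 475 CPM or more.

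S6 and S7 differed from the other suprabasal columns in several groups of genes at once. They held the highest Krt5, Krt14 and Ccnd2, and Sparc, a matrix protein, at 250 and 173 CPM against 3.77 CPM or less in the other 6. The lower genes took 1.19 and 1.38% of their counts, against 0.505 to 0.667% in the other columns. Without both, 598 genes were at least 4-fold higher and 1391 lower, and 76 and 29 genes did not overlap in place of 39 and 14.

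Among the 20 genes with the largest ratios on the higher side that met the limits for naming, Elovl4, Lgals3, Krt77, Dsc1, Cyp4f39 and Dsg1a have been described. The others included Rdh12, Serpinb12, Sdr16c6, Ly6d, Paqr5, Bpifc, Them5, Abca12, St8sia6, Tmem45a, Nipal1, Capns2 and Tmprss4. Within sets A, B and C, 18 of the 20 were at least 4-fold higher in each, and Serpinb12 and Bpifc were the exceptions, with no count in S3 and a log2 ratio of −0.18 for Bpifc in set B. The 20 were picked by their ratio over these same columns, so this was partly fixed by the choice and is no replication. Log2 ratios of the 20 ran from 7.04 for Tmprss4 to 9.52 for Elovl4.

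The 20 on the lower side included Icam1, Lamb3, Cav1, Col12a1, Ackr3, Col17a1, Dll1, Anxa6, Trim35, Dlk2, Nedd9, Wnt10a, Bmp2, Pdgfa, Cxcl14, Map1b, Samd5 and Wnt3a. All 20 were at least 4-fold lower within each of sets A, B and C, and the log2 ratios of those given here ran from −7.16 for Icam1 to −6.41 for Wnt3a. Within set B this limit was passed by 5009 genes in all, with a median log2 ratio of −2.07 over all genes tested. As on the higher side, the result within the sets was partly fixed by how the 20 were picked. Pdgfa, for a growth factor received by dermal fibroblasts, was 24 to 612 CPM in basal columns and 15.1 CPM in S7 with 1.94 CPM or less in the other suprabasal columns. Cxcl14, a chemokine, was 102 to 1591 CPM against 0.783 to 25.6 CPM, and neither gene overlapped between the groups.

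Markers of other cell types were low. No gene of the melanocyte, Merkel cell, neuron, endothelial, immune or muscle lists passed the filter, and the summed lists in any suprabasal column were at most 18.2, 11.3, 36.2, 0, 5.74 and 8.95 CPM. Of 6 red blood cell genes Hba-a1 passed and was lower, with a list sum of 0 to 13 CPM against 0 to 647 CPM in the basal columns. The direction of Hba-a1 was the reverse within set A (log2 ratio 2.54) and set C (0.71).

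Fibroblast genes were measured in both groups. Of 12 listed genes 6 passed, Vim was at least 4-fold higher, Dcn and Sparc were lower, and the median log2 ratio was −1.17. For comparison, 5.28% were higher and 10.6% lower over all 10300 genes. The list summed to 62.1 to 865 CPM in suprabasal and 1103 to 5249 CPM in basal columns. Postn was the largest part of it in S2, S4, S5, S7 and S8. Col1a2, Pdgfra, Pdgfrb, Twist1 and Twist2 had no count in the 8 suprabasal columns. Sorting without CD140a, the product of Pdgfra, and a qPCR check for Pdgfra selected against its expression, so its absence is no finding. Vim, an intermediate filament gene, was 0 to 226 CPM with S6 and S3 the highest, and Postn was 0.728 to 409 CPM against a basal median of 499 CPM.

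Periderm, the flat outermost layer of fetal skin, was checked through 14 genes of which 6 passed, with Krt4 at least 4-fold higher and Krt16 and Krt18 lower (median log2 ratio 0.05). With 5.28% higher and 10.6% lower over all 10300 genes, so few genes show no trend of the list. The list summed to 4.12 to 461 CPM in suprabasal and 7.97 to 435 CPM in basal columns, and its highest suprabasal column was S6. Krt4 was 42.2, 31.6 and 29.1 CPM in S1, S2 and S6 and 1.38 CPM or less in the others, and within set B its log2 ratio was −0.10.

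Enzymatic dissociation can switch on early response genes, and all 15 listed ones passed the filter. Hspa1a and Hspa1b, near-identical heat shock genes whose reads may be split, were at least 4-fold higher, and Fosb, Jund, Atf3 and Nr4a1 were lower (median log2 ratio −0.64). The shares over all 10300 genes were 5.28% higher and 10.6% lower. The list summed to 6245 to 18254 CPM in suprabasal and 859 to 67195 CPM in basal columns. Hspa1b was 477 to 1284 CPM against 0.254 to 526 CPM. Within set C Atf3 and Nr4a1 were higher, with log2 ratios of 1.59 and 1.04, and the part of dissociation in these values was not tested.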

How the data were processed

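The values were gene-level estimated counts as deposited by the authors, many of them with decimals. According to the submitters' notes reads were trimmed with Trimmomatic and aligned to mm10 with HISAT2, and the authors' methods name featureCounts with Ensembl annotation. The handling of strand and of reads that map to several places is not given, so close gene copies and overlapping genes on opposite strands cannot be told apart by these counts. In the 51 columns 25.8% of nonzero values were not whole numbers, and all were rounded before use. CPM was the rounded count over the column total, and the mean CPM of each group plus 1 was compared. Genes with a mean of 10 CPM or more in either group were tested, without the 8 genes of the rule. A gene was named among the top 20 of a direction if the mean of the high group was 50 CPM or more, 75% or more of that group's columns had a count, and its symbol was not a provisional one of the Gm or Rik kind, in order of the ratio. Symbols were found for 55154 of 55335 gene identifiers. The 37 mitochondrial genes had 0 counts in the 51 columns.

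221 columns are not paired with a sample, and no test of the difference between groups was made because all columns count as one pool. The 22 gene lists, with 325 entries, and the members were chosen with earlier results of these data known. Alternatives changed the summary of columns, the value added to means, the scaling, the filter, the rounding, the limits of the rule and the columns used. Those by set A, B or C, without S6 and S7, and without genes rich in ribosomal RNA reads were added after seeing the data. The scripts were checked on simulated data. Scripts ran in Python 3.11.15, with scipy 1.17.1 for intervals, matplotlib 3.10.9 for drawing, and tables handled by pandas 2.3.3 over numpy 2.4.6.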

Additional observations from a re-analysis of the deposited data

Results flagged for a closer look

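Among the 8 suprabasal columns, 29 quantities were examined for a highest or lowest column set apart, meaning that its gap to the next column over the whole range passed the 5% critical value of Dixon's test for 8 values. That value is set so that about 1 in 20 groups of normally distributed values would pass by chance. CPM with many zeros are skewed, so the rate for these columns is not known, and the value served only to pick what is listed here.

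S7 stood apart in the summed list of basal genes, at 3714 CPM with the next column at 1083 CPM, and in Krt14, at 5756 CPM with the next at 1146 CPM. S6 stood apart in Krt17, at 6297 CPM with the next at 89.5 CPM, in Krt8, at 49.1 CPM with the next at 3.77 CPM, and in the Merkel cell list, at 11.3 CPM with the next at 1.83 CPM. S1 held 18.2 CPM of the melanocyte list against 2.26 CPM in the next column, and S5 36.2 CPM of the neuron list against 7.40 CPM.

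Outside both groups, 1 column had 271 of the 544 higher genes at 10 CPM or more, while the highest basal column had 155. It was the column with Krt1 at 838 CPM and Krt10 at 401 CPM. Of the 186 columns in neither group, 52 had more than 155. By share of counts another of these columns was higher. The higher genes took 10.4% of its counts, with 188 of them at 10 CPM or more, against 6.39% in the column with 271.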

How the results depend on the processing

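The 544 higher genes became 984 with the median CPM of the columns, 257 with 10 CPM added to the means, 943 with only the columns paired with a labelled cell, 968 within set A and 871 within set B. The 1090 lower genes became 305 with 10 CPM added, 1886 without the filter on low values, 3086 with only the paired columns, 2267 within set A and 5009 within set B. The 39 genes with every suprabasal column above became 76 without S6 and S7, and the 14 with every one below became 9 with median-of-ratios size factors and 29 without S6 and S7. Leaving out single suprabasal columns gave 499 to 567 higher and 1096 to 1208 lower genes, and 40 to 54 and 14 to 19 genes without overlap, but not always the same genes, since 386 (71.0%) of the 544 and 969 (88.9%) of the 1090 were called every time. Size factors gave 579 higher and 1059 lower genes, and fractional counts 544 and 1091. Of 6486 log2 ratios of 282 genes, 5772 differed from the main value by no more than the spread of the gene's log2 values over the suprabasal columns (1 standard deviation, used as a yardstick only), 694 differed by more, and 20 that had been past 4-fold changed sign. Within set B, where S3 is the only suprabasal column, the log2 ratios that changed sign were Bpifc at −0.18, Calml3 at −2.36, Sprr1a at −3.22, Cers3 at −3.80, Dsc2 at −0.44, Tjp3 at −0.61, Zfp750 at −4.44, Id2 at −1.88 and Krt4 at −0.10. Within set C they were Calm4 at −0.36, Nid1 at −0.82, Hba-a1 at 0.71, Atf3 at 1.59 and Nr4a1 at 1.04, and within set A Hba-a1 at 2.54. With only the paired columns Sprr1b was −0.13 and Nid1 −2.27, and with Krt1 and Krt10 at 5000 CPM or more Ptgs1 was −0.0176. Over single columns left out, Ptgs1 ranged from −0.0176 to 4.34 and Nid1 from −1.12 to 2.75. The settings by set and without S6 and S7 were chosen after seeing the data and use fewer columns by construction, and the cause of the other changes was not tested. No paired analysis was possible because the embryo of most columns is not known. The 8 suprabasal columns are few, and neither their embryos nor their genotypes are known apart from S1, so over all 51 columns layer is not separated from embryo, sex or handling.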

Other observations

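The following 4 genes were picked from the 39 with every suprabasal column above every basal column, and stand for no wider group of genes. Gltp, whose product moves glycolipids between membranes, was 1430 to 5403 CPM (median 3973) against 1.99 to 507 CPM in basal columns (median 145), a 21.6-fold ratio. Mgst1, a membrane glutathione transferase, was 329 to 4520 CPM with S7 the lowest, against 0 to 200 CPM. Acaa2, an enzyme of mitochondrial fatty acid breakdown, was 1460 to 3622 CPM against 4.32 to 914 CPM, and Acot1, a thioesterase that frees fatty acids, was 254 to 951 CPM against 0 to 244 CPM. The lowest Acot1 column, S1, was close to the highest basal column.

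Among the genes with every suprabasal column below every basal column was Fth1, the heavy chain of the iron store ferritin. It was 11.2 to 357 CPM (median 99.9), lowest in S1 and highest in S7, against 446 to 1815 CPM (median 1157), and was 8.88-fold lower. Processed copies of ferritin genes may share its reads. Serpinh1, a chaperone for collagen, was 15.1 CPM in S7, 13.7 CPM in S6 and 2.61 CPM or less in the others, against 53.9 to 378 CPM, and Nfib, a transcription factor, was 3.87 to 278 CPM against 286 to 1137 CPM.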
